A study of Homo sapiens with 96 samples.

Results

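The effect of adding an LSD1 inhibitor to all-trans retinoic acid (ATRA) was measured in Kasumi1, a human acute myeloid leukaemia (AML) cell line that carries the RUNX1-RUNX1T1 fusion. The comparison rests on 8 of the 96 RNA sequencing libraries of the series, chosen by their labels: 4 Combo libraries and 4 ATRA libraries. Combo cells received 1 µM GSK2879552, an inhibitor of the histone demethylase LSD1, together with 100 nM ATRA. ATRA cells received 100 nM ATRA without the inhibitor, so the retinoid was present in both groups. Each treatment had 2 replicates on day 2 and 2 replicates on day 4. The same line treated with GSK2879552 alone (labelled 552A, and read here as that arm, 1 µM) or with 0.1% DMSO, the vehicle, gave 8 further libraries. Combo and ATRA libraries of the AML lines HL60, MOLM13, MV411, OCIAML3 and THP1, 40 in all, were used for a comparison between lines. Kasumi1 is a single established line, and no label ties a replicate to a culture of its own. The p-values below therefore set each difference against the spread between these libraries, and that spread may be technical. The question addressed was which genes the inhibitor changed on top of the retinoid.

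LSD1, encoded by KDM1A, removes methyl groups from histone H3 and works in the CoREST complex together with histone deacetylases. In blood cells the zinc-finger repressors GFI1 and GFI1B bring this complex to enhancers and promoters of myeloid genes, and its inhibition is known to release genes of monocytic and granulocytic differentiation. ATRA acts through nuclear receptors for retinoic acid, which switch on genes of granulocytic maturation. In other tumour cells, loss of LSD1 activity is also known to raise interferon-stimulated genes.

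The 8 libraries held 15803628 to 27784362 counts each. Levels are normalised read counts in CPM, the usual scaling of counts to library size, and the values of 4 libraries are given in the order day 2 replicates 1 and 2, then day 4 replicates 1 and 2. The labelled line was checked against its markers. RUNX1T1, which the fusion expresses, had 112 to 181 CPM in Combo libraries and 115 to 144 CPM in ATRA libraries, and MPO, a granule enzyme of myeloid cells, had 3690 to 12000 and 6730 to 10600 CPM in Combo and ATRA libraries. HOXA9, which is low in this AML type, had 1.24 to 3.06 CPM in Combo libraries and 1.87 to 2.64 CPM in ATRA libraries. CD3E of T cells stayed at or under 0.0971 CPM in Combo libraries and 0.387 CPM in ATRA libraries, and COL1A1 of stromal cells at or under 0.0688 CPM in Combo libraries with 0 counts in ATRA libraries. The epithelial marker EPCAM was nevertheless at 89.6 to 117 CPM in Combo libraries and 103 to 125 CPM in ATRA libraries. A pair of libraries, both Combo on day 4, stood apart. In replicate 1, log2 levels fell with gene GC content by 0.68 for each 10 percentage points, against slopes of -0.24 to 0.17 in the other libraries, over 12266 genes. In replicate 2, mitochondrially encoded genes took 7.59% of the counts, of which mitochondrial ribosomal RNA was 6.77% of all counts, against a mitochondrial share of 0.716 to 2.52% in the other libraries.

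Adding the inhibitor raised more genes than it lowered. Of 16668 genes tested over both days with day as a factor, 1315 were called at an adjusted p under 0.05 (edgeR's quasi-likelihood test, Benjamini-Hochberg), which is 7.89% of the genes tested. Of these, 1000 (6% of the genes tested) were higher in Combo libraries and 315 (1.89%) were lower. The rises were also larger. The median change of the higher genes was 1.21 on the log2 scale, 605 of them rose more than 2-fold and 40 more than 16-fold, whereas the lower genes had a median change of 0.66 downwards and 55 of them fell more than 2-fold. The 4 Combo libraries lay wholly on their side of the 4 ATRA libraries in 963 of the 1000 higher and 312 of the 315 lower genes, against 16.6% of all genes tested. The choice of these genes from the same libraries nearly fixes that separation, so it adds no evidence to the calls. Leaving out a library moved the number of calls to 612 without ATRA day 4 replicate 1, 774 without ATRA day 2 replicate 2, 792 without Combo day 2 replicate 1, 805 without Combo day 2 replicate 2, 814 without ATRA day 4 replicate 2, 830 without ATRA day 2 replicate 1 and 2307 without Combo day 4 replicate 1. With offsets for GC content and gene length the calls numbered 4662 and were split 2147 higher to 2515 lower, so the 76% share of higher genes among the calls depended on that setting. None of the 1315 genes changed direction under the 16 alternatives run for this comparison. Of 124 called genes named here or held by the gene lists, 42 lost their call in at least 1 fit without a library. The losses were 37 without ATRA day 4 replicate 1, 34 without ATRA day 2 replicate 2, 32 without Combo day 2 replicate 1, 31 without ATRA day 4 replicate 2, 30 without Combo day 2 replicate 2, 26 without ATRA day 2 replicate 1, 11 without Combo day 4 replicate 2 and 0 without Combo day 4 replicate 1, with adjusted p-values of 0.05 to 0.159. They include ANPEP, BCL2A1, BTG1, CIITA, CTSB, CTSG, DDIT4, DHRS3, FCGR1A, FCGR2A, FDFT1, HLA-DQB1, HLA-DRA, IFIT2, IFIT3, IGLL1, KIT, KLF6, MEIS1, MN1, MYCN, NKG7, NLRP3, NOLC1, NOP16, NOP56, POLR1A, PRDM1, RUNX3, S100P, SIRPA, SP110, STRA6, TAL1 and WFDC1.

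The genes with the largest rises had low levels under ATRA alone. Here and in the lists below, genes almost absent from ATRA libraries passed the filter only through Combo libraries. Such genes could only be found higher. LY96, which encodes MD-2, the partner through which TLR4 binds endotoxin, had 6.48, 7.38, 11 and 8.81 CPM in Combo libraries, against 0, 0, 0.116 and 0 CPM in ATRA libraries. With 730 counts in the Combo libraries and 2 in the ATRA libraries, its pooled ratio was 362-fold (95% counting interval 99.9 to 2990, exact binomial; such intervals cover counting error only). MS4A4A (GRCh38 chr11:60185702-60317944), a tetraspan surface protein of macrophages, had 15.7, 18.4, 19.8 and 16.9 CPM in Combo libraries, against 0.212, 0.207, 0.174 and 0.145 CPM in ATRA libraries. Its 4 Combo values lay close together and far above all ATRA values, with a log2 fold change of 6.52 ± 0.22 (standard error, SE, as throughout) and an adjusted p of 7.07e-06. In bulk RNA a higher level per cell and a larger share of expressing cells cannot be told apart.

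IL7R (chr5:35852695-35879603), the receptor chain for interleukin 7 that is best known from lymphocytes, had 12.2, 12.6, 75.8 and 75.1 CPM in Combo libraries, against 0.212, 0.569, 0.348 and 0.387 CPM in ATRA libraries. The Combo values on day 4 exceeded those on day 2, and every Combo value exceeded every ATRA value (log2 fold change 6.45 ± 0.50, adjusted p 0.000217). KCTD12 (chr13:76880166-76886390), an auxiliary subunit of GABA-B receptors in neurons, had 179, 191, 310 and 345 CPM in Combo libraries, against 3.95, 4.35, 3.48 and 4.36 CPM in ATRA libraries (log2 fold change 5.92 ± 0.22, adjusted p 7.07e-06). The transcription factor TCF4 (chr18:55222331-55664787), an E protein needed for plasmacytoid dendritic cells, had 55.1, 54.3, 180 and 143 CPM in Combo libraries, against 1.59, 1.55, 2.15 and 1.65 CPM in ATRA libraries (log2 fold change 5.76 ± 0.29, adjusted p 3.7e-05). In all 3 genes the groups were separated by a wide gap, but the rule that named the largest rises required separation within each day. CD86 (chr3:122055366-122121139), a co-stimulatory ligand for T cells and a much used marker of response to LSD1 inhibitors in myeloid cells, had 5.64, 6.65, 7.15 and 8.26 CPM in Combo libraries, against 0.176, 0.155, 0.174 and 0.0484 CPM in ATRA libraries (log2 fold change 5.55 ± 0.31, adjusted p 5.49e-05). The other genes among the 10 largest rises were RGMB, a co-receptor for bone morphogenetic proteins, PI16, SCN3A, a sodium channel of neurons, and BCAR3, an adaptor protein, with log2 fold changes of 6.33, 6.16, 5.93 and 5.09 in that order. FCRLA, an Fc receptor-like protein of B cells, had 2.48 to 3.3 CPM in Combo libraries and 0 counts in all 4 ATRA libraries, which made it at least 79.3-fold higher (3 counts over the group as the floor).

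**Figure D1:**
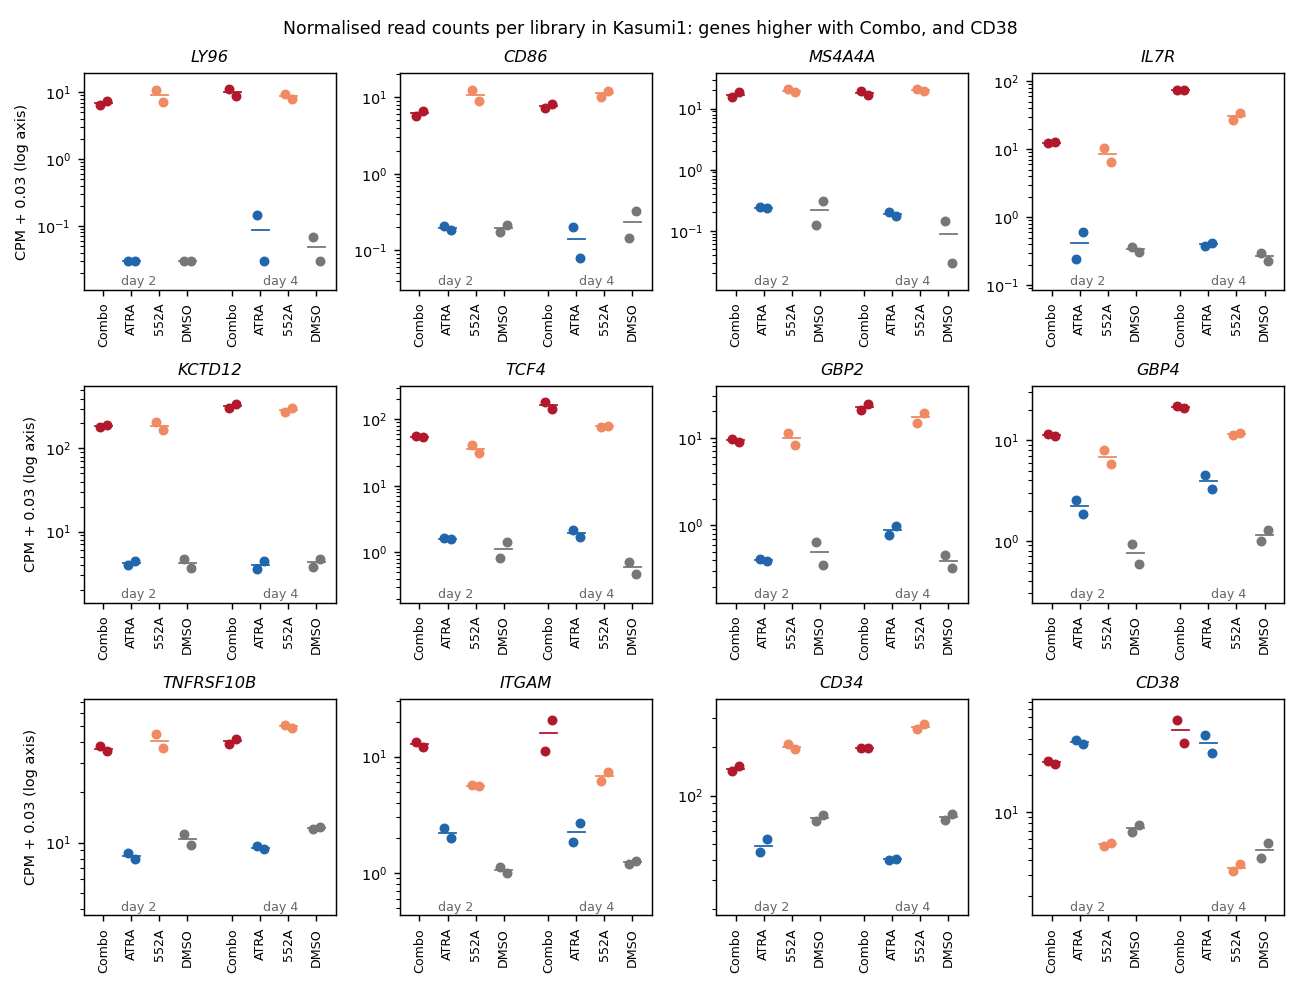
CPM of 12 genes in each of the 16 Kasumi1 libraries (log axis, 0.03 added so that 0 can be drawn), with Combo, ATRA, 552A and DMSO from left to right for day 2 and then day 4; points are libraries and lines their means. CD38 is the panel in which Combo and ATRA libraries overlap, while in the others, such as MS4A4A with 15.7 to 19.8 CPM in Combo libraries, no ATRA library reached a Combo library.

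Surface and secreted genes of monocytes and macrophages rose as well. In the list of myeloid surface markers, 9 of 18 tested members were higher and 2 were lower (median log2 fold change 0.48, against -0.008 over all genes tested). ITGAM (chr16:31259967-31332892), the integrin chain CD11b, had 13.4, 12.1, 11.1 and 20.7 CPM in Combo libraries, against 2.4, 1.97, 1.8 and 2.66 CPM in ATRA libraries (log2 fold change 2.66 ± 0.24, adjusted p 0.000414). CSF1R, the receptor for macrophage colony-stimulating factor, had 33, 30.3, 12.2 and 27.1 CPM in Combo libraries, against 8.78, 7.76, 4.12 and 7.26 CPM in ATRA libraries (log2 fold change 1.85 ± 0.27, adjusted p 0.00364). The groups did not overlap in either gene, and the lowest value of CSF1R in each group was that of day 4 replicate 1. ITGAX, the integrin chain CD11c of dendritic cells and macrophages, rose by 1.58 ± 0.19 on the log2 scale, and CLEC12A, ANPEP and the Fc receptors FCGR2A and FCGR2B also rose. The 2 that fell were FCGR1A, the high-affinity Fc receptor CD64 (log2 fold change -0.73 ± 0.16, adjusted p 0.0239), and SIRPA, which receives the CD47 signal (-0.73 ± 0.17, adjusted p 0.0325). FCGR2A, FCGR2B and FCGR1A have near-identical paralogs, so their values carry the added uncertainty of shared reads.

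Of 14 tested members of the monocyte and macrophage list, 7 were higher and 0 were lower, with a median log2 fold change of 1.15. With the replicate number as a block, 15 members were tested, and 7 were higher and 0 lower. Other fits that tested 15 members also had a lower call. They gave 9 higher and 1 lower without Combo day 4 replicate 1, 6 and 1 without Combo day 4 replicate 2, and 3 and 1 on day 2 alone. MRC1, the mannose receptor, had 6.04, 4.9, 15.5 and 16 CPM in Combo libraries, against 0.388, 0.362, 0.58 and 0.581 CPM in ATRA libraries (log2 fold change 4.32 ± 0.24, adjusted p 5.49e-05). LYZ, the antibacterial enzyme lysozyme, had 50.3, 47.9, 48.3 and 44.5 CPM in Combo libraries, against 6.88, 4.14, 5.92 and 4.6 CPM in ATRA libraries (log2 fold change 3.14 ± 0.19, adjusted p 7.67e-05). Both genes were higher in all 4 Combo libraries than in any ATRA library. MS4A7, CTSS, CCR2, CYBB and CTSB were the others that rose. CD14, the endotoxin co-receptor that defines classical monocytes, was too low to test, with 5 counts over the Combo libraries and 2 over the ATRA libraries. The dendritic cell list had 5 of 10 tested members higher and 0 lower (median 1.05). Among them, IRF4, a transcription factor of dendritic cells and lymphocytes, rose by 3.18 ± 0.22 and CD1C, a lipid-presenting molecule, by 4.02 ± 0.36 on the log2 scale.

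Receptors that sense microbes rose with them. In the list of innate sensors and inflammasome genes, 6 of 13 tested members were higher and 0 lower (median 0.62). Besides LY96 they were TLR1 and TLR6, partners of TLR2 in the recognition of bacterial lipopeptides, NLRC4 and NLRP3, which nucleate inflammasomes, and the cytokine gene IL1B. TLR1 had 15, 19.3, 31.7 and 21.7 CPM in Combo libraries, against 0.811, 0.983, 0.754 and 0.484 CPM in ATRA libraries (log2 fold change 4.80 ± 0.31, adjusted p 9.89e-05). TLR6 had 22, 23.1, 32.5 and 22.1 CPM in Combo libraries, against 6.21, 6.21, 6.61 and 5.04 CPM in ATRA libraries (log2 fold change 2.04 ± 0.19, adjusted p 0.000482). No Combo value of either gene came near an ATRA value. The annotated spans of TLR1 and TLR6 overlap on the same strand, so how the counting divided their reads is not known.

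Interferon-stimulated genes formed the largest list with rises in a single direction. Of 34 tested members, 20 were higher and 0 lower (median 0.84), and summed over the list the level was 1140 to 1460 CPM in Combo libraries and 733 to 855 CPM in ATRA libraries. The guanylate-binding protein GBP2, an interferon-induced GTPase that acts against intracellular pathogens, had 9.76, 9.03, 20.7 and 24.1 CPM in Combo libraries, against 0.388, 0.362, 0.754 and 0.968 CPM in ATRA libraries (log2 fold change 4.65 ± 0.18, adjusted p 7.07e-06). GBP4 had 11.4, 11, 22.1 and 21.1 CPM in Combo libraries, against 2.54, 1.81, 4.53 and 3.24 CPM in ATRA libraries (log2 fold change 2.4 ± 0.18, adjusted p 0.000197). GBP1, with 295 counts in Combo libraries and 1 in ATRA libraries, had a pooled ratio of 293-fold (95% counting interval 52.1 to 11600). These GTPases are close paralogs, and reads shared between them could be divided in error. OAS1, which makes the oligoadenylate that activates RNase L, had 9.16, 7.52, 9.71 and 9.91 CPM in Combo libraries, against 2.33, 2.48, 2.26 and 1.99 CPM in ATRA libraries (log2 fold change 1.99 ± 0.18, adjusted p 0.000407). The others that rose included the antiviral genes MX1, MX2, OAS2, OAS3 and RSAD2, the IFIT family members IFIT2, IFIT3 and IFIT5, the RNA sensor DDX58, and the transcription factors IRF1 and STAT2. On day 2 alone 6 of the list were called, and the count was 23 without Combo day 4 replicate 1 and 20 without Combo day 4 replicate 2.

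The promoters of interferon-stimulated genes are known to hold the interferon-stimulated response element, which IRF and STAT proteins bind. Its core, searched as GAAANNGAA on both strands in windows from 250 bases before to 50 bases after the start of each gene (RefSeq, GRCh38.p14), was present in 11 of the 15 higher interferon genes with an entry (73.3%). It was present in 18 of the 25 interferon genes tested with an entry (72%), in 6.49% of 9814 tested protein-coding genes, and in 8.29% of all 27305 promoters. Among all called genes the share was 9.54% of 671 higher genes and 4.82% of 228 lower genes. The matches describe these windows and show no binding. Windows of 3 genes are printed to show how the element sits near the start, with the matches in capitals, 5′ to 3′ on the strand of the gene. GBP1 and GBP4 were named by the rule for lists, and IFIT5 was chosen after its values were seen because its window holds 3 matches. IFIT5 (log2 fold change 2.72 ± 0.24, adjusted p 0.000407) had 8.16, 8.98, 20.8 and 12.9 CPM in Combo libraries, against 1.73, 1.35, 2.44 and 1.84 CPM in ATRA libraries.
GBP1, chr1:89065159-89065458, minus strand: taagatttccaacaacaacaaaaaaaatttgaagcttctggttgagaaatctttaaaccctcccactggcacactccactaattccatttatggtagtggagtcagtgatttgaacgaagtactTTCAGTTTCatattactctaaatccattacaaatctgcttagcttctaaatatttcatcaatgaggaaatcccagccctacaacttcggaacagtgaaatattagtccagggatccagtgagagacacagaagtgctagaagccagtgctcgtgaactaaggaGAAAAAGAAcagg
GBP4, chr1:89198893-89199192, minus strand: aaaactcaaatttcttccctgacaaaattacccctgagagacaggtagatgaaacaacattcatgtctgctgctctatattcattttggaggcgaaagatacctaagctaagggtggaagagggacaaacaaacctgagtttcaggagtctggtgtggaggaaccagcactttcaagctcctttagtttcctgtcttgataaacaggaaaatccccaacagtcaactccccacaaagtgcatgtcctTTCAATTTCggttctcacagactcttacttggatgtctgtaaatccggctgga
IFIT5, chr10:89414318-89414617, plus strand: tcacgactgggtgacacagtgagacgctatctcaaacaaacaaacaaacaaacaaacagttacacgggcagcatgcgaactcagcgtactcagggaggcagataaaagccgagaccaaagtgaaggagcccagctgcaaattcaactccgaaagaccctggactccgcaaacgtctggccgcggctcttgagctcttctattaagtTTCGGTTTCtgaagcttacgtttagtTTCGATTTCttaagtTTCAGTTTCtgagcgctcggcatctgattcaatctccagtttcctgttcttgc
The match in the GBP4 window and the match nearest the start in the IFIT5 window begin 3 bases before the annotated start, and the other 2 in IFIT5 begin 18 and 44 bases before it. In GBP1 a match begins 126 bases before the start and another lies after it.

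Antigen presentation genes moved the same way in smaller numbers. In the HLA class II list, 5 of 10 tested members were higher and 0 lower (median 1.03). CIITA, the master activator of class II genes, had 18.6, 18.4, 17.5 and 34.9 CPM in Combo libraries, against 9.17, 10.3, 10 and 13.2 CPM in ATRA libraries (log2 fold change 1.04 ± 0.21, adjusted p 0.02). HLA-DRA rose by 1.02 ± 0.20, HLA-DQB1 by 1.10 ± 0.28 (a call lost with RLE size factors in place of TMM) and CTSS, the protease that trims the invariant chain, by 1.14 ± 0.14 on the log2 scale. HLA-DMB, which loads peptides, had a pooled ratio of 18.8-fold (95% counting interval 6.13 to 94.1) from 57 counts in Combo libraries and 3 in ATRA libraries. The class II calls numbered 11 of 11 tested without Combo day 4 replicate 1, a fit in which more members passed the filter. They numbered 4 of 10 tested without Combo day 4 replicate 2. In the class I list ERAP2, a peptidase that trims class I peptides, was among the rises. Of 14 tested members, 2 were higher and 0 lower (14.3%, against 7.89% of all genes tested, median 0.51). This count was 6 without Combo day 4 replicate 1. HLA genes are polymorphic paralogs, and their counts depend on how reads map to the reference alleles.

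Genes of lymphoid cells and of cell migration were among the rises. In the GIMAP family, small GTPases of lymphocyte survival, 4 of 6 tested members were higher and 0 lower. GIMAP4 had 317 counts in Combo libraries and 1 in ATRA libraries, a pooled ratio of 314-fold (95% counting interval 56 to 12500), and GIMAP8 rose by 1.80 ± 0.19, GIMAP1 by 1.95 ± 0.26 and GIMAP2 by 0.70 ± 0.13 on the log2 scale. In the lymphoid list, which marks cells that a myeloid line should not contain, IL7R, FCRLA, GZMA and NKG7 were higher and IGLL1, part of the surrogate light chain of early B cells, was lower (log2 fold change -2.35 ± 0.44, adjusted p 0.0136), among 9 tested members. Its summed level was 38.5 to 107 CPM in Combo libraries and 14.7 to 26 CPM in ATRA libraries, and 5 of its 24 members had 0 counts in all 8 libraries. Members almost absent from ATRA libraries, such as IL7R, FCRLA and GZMA here and GIMAP4 above, passed the filter only through Combo libraries. They could only be found higher. The T cell marker CD3E was near 0, as given above. CXCR4, the receptor for the bone marrow chemokine CXCL12, had 13.6, 14.9, 28.5 and 35.8 CPM in Combo libraries, against 2.43, 2.59, 3.66 and 2.47 CPM in ATRA libraries (log2 fold change 2.94 ± 0.24, adjusted p 0.000265). CCR2 and CCR7, receptors of monocytes and of migrating dendritic cells, rose by 2.31 ± 0.32 and 3.43 ± 0.52, and C3AR1, the receptor for complement fragment C3a, fell by 1.27 on the log2 scale (SE 0.20). These 4 were the calls among 9 tested chemoattractant and chemokine receptors, and among 7 tested chemokines and cytokines 2 were higher, TNFSF10 and IL1B. In the SP100 family of nuclear body proteins, SP140 and SP110 were higher, 2 of 5 tested (40%, against 7.89% of all genes tested).

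A death receptor and its ligand rose together. TNFRSF10B encodes a receptor for TRAIL and had 38.1, 35.3, 39.2 and 41.9 CPM in Combo libraries, against 8.64, 7.97, 9.52 and 9.05 CPM in ATRA libraries (log2 fold change 2.13 ± 0.12, adjusted p 5.49e-05). TNFSF10 encodes TRAIL itself and had 10.4, 8.01, 17 and 14.8 CPM in Combo libraries, against 1.59, 2.28, 1.62 and 2.08 CPM in ATRA libraries (log2 fold change 2.67 ± 0.24, adjusted p 0.000448). The groups were separated in both genes. BMF, a pro-apoptotic BH3-only protein, rose by 1.84 ± 0.19 and BIRC3, an inhibitor of apoptosis, by 1.82 ± 0.28, while BCL2A1, a survival protein of myeloid cells, fell by 1.38 (SE 0.26) on the log2 scale. These were the 5 calls among 24 tested members of the cell death and survival list (4 higher, 1 lower, median 0.19). That is 20.8%, against 7.89% of all genes tested. Among 14 tested inhibitors of the cell cycle, CDKN1B, which encodes p27, CCNG2 and BTG1 were higher (log2 fold changes 0.66, 1.00 and 1.13) and 0 were lower. There were 5 higher without Combo day 4 replicate 1, 4 higher and 2 lower by DESeq2, and 7 higher and 1 lower with the GC and length offsets.

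Regulators of the myeloid lineage included both called and uncalled genes. KDM1A, the gene of the drug's target, had 254, 286, 272 and 291 CPM in Combo libraries, against 290, 340, 352 and 359 CPM in ATRA libraries, and was not called (log2 fold change -0.29 ± 0.10, adjusted p 0.134). Its repressor partner GFI1 had 731, 619, 634 and 841 CPM in Combo libraries, against 392, 381, 382 and 417 CPM in ATRA libraries, and rose by 0.83 ± 0.12 on the log2 scale (adjusted p 0.00343). GFI1 was the call among 15 tested members of the LSD1 complex and its partners (6.67%, against 7.89% of all genes tested). The GC and length offsets gave 1 higher and 2 lower in that list. GFI1B was too low to test, with 11 counts over the Combo libraries and 0 over the ATRA libraries. Among 15 tested myeloid transcription factors, 4 were higher and 0 lower (26.7%, against 7.89% of all genes tested, median -0.05), and the GC and length offsets gave 7 higher and 2 lower. They were IRF8, which directs monocyte and dendritic cell fate (log2 fold change 1.21 ± 0.16), BCL6 (1.38 ± 0.22), PRDM1 (1.65 ± 0.33) and KLF6 (0.52 ± 0.11). SPI1, CEBPA and CEBPE, which encode PU.1 and the C/EBP factors of granulocyte formation, were not called (log2 fold changes -0.24 ± 0.38, 0.41 ± 0.33 and -0.73 ± 0.46), and Combo day 4 replicate 1 held the lowest value of all 3 among the 8 libraries. RUNX1T1 was not called either (0.08 ± 0.17, adjusted p 0.848). In the list of the fusion and core binding factor genes, RUNX3 was the call among 11 tested (9.09%, against 7.89% of all genes tested). RUNX3 rose by 0.88 ± 0.22 (adjusted p 0.0436, edgeR). It lost this call with RLE size factors in place of TMM (adjusted p 0.051, edgeR) and without any 1 library except Combo day 4 replicate 1.

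Stem and progenitor genes moved in both directions, with 5 of 18 tested higher and 2 lower (median 0.07). CD34 (chr1:207880972-207911402), the surface marker of blood stem and progenitor cells, had 141, 152, 196 and 198 CPM in Combo libraries, against 44.5, 53.5, 40 and 40.6 CPM in ATRA libraries (log2 fold change 1.93 ± 0.16, adjusted p 0.000318). All Combo values exceeded all ATRA values by a wide margin. The stem cell factor receptor KIT had 1130, 1290, 1220 and 913 CPM in Combo libraries, against 1750, 1680, 1940 and 1590 CPM in ATRA libraries, and fell by 0.63 on the log2 scale (SE 0.15, adjusted p 0.0343). The groups did not overlap in KIT. CD109 rose by 2.18 ± 0.20, and the transcription factors ERG, MEIS1 and MN1 rose by 1.02 ± 0.10, 0.99 ± 0.19 and 1.16 ± 0.28 on the log2 scale, while TAL1 fell by 1.04 (SE 0.24).

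Of 17 tested members of the retinoic acid response list, 3 were higher and 1 lower (23.5%, against 7.89% of all genes tested, median 0.17). DHRS3, which converts retinal to retinol and is induced by retinoids, rose by 0.83 ± 0.20 (adjusted p 0.0403), RARRES3 rose by 1.23 ± 0.20 (adjusted p 0.00733), and STRA6, the membrane receptor for retinol uptake, fell by 1.98 (SE 0.46, adjusted p 0.0324) on the log2 scale. RBP7, a cellular retinol-binding protein, had a pooled ratio of 18.2-fold (95% counting interval 5.9 to 90.9) from 55 and 3 counts in Combo and ATRA libraries. The count of calls was 2 without Combo day 4 replicate 2. CD38, an ectoenzyme that ATRA is known to induce in myeloid cells, had 26.1, 24.9, 56.8 and 37.1 CPM in Combo libraries, against 39.3, 36.3, 43 and 30.7 CPM in ATRA libraries. These groups overlapped and the gene was not called (log2 fold change -0.11 ± 0.23, adjusted p 0.847). In cells without ATRA, CD38 was at 3.19 to 5.53 CPM in 552A libraries and 4.09 to 7.78 CPM in DMSO libraries. CYP26A1, which degrades retinoic acid, was too low to test, and the receptor gene RARA was not called (0.17 ± 0.43).

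The falls included enzymes of lipid synthesis. In the list of cholesterol and fatty acid synthesis, 4 of 18 tested members were lower and 0 higher (median -0.53), and summed over the list the level was 1440 to 1670 CPM in Combo libraries and 2200 to 2490 CPM in ATRA libraries, with no overlap. SCD (chr10:100347124-100364834), which desaturates fatty acids, had 97.1, 121, 108 and 86.3 CPM in Combo libraries, against 220, 237, 276 and 242 CPM in ATRA libraries (log2 fold change -1.25 ± 0.14, adjusted p 0.00118). SQLE, which makes squalene epoxide, had 79.7, 88.3, 96.8 and 105 CPM in Combo libraries, against 127, 141, 173 and 162 CPM in ATRA libraries (log2 fold change -0.71 ± 0.10, adjusted p 0.00326). In both genes the highest Combo value was under the lowest ATRA value. FDFT1, which makes squalene, fell by 0.46 (SE 0.10) on the log2 scale. The count of lower members was 15 with the GC and length offsets, 9 by DESeq2, 10 without Combo day 4 replicate 1 and 6 without Combo day 4 replicate 2, and 0 were higher in any of these 4 fits.

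Other falls included granule proteins. RNASE2, the eosinophil-derived neurotoxin, had 8.64, 11.8, 6.5 and 6.06 CPM in Combo libraries, against 20.6, 26, 18.7 and 20.8 CPM in ATRA libraries (log2 fold change -1.42 ± 0.18, adjusted p 0.00192). CTSG, the granule protease cathepsin G, had 25.4, 24.5, 8.26 and 18.1 CPM in Combo libraries, against 51, 51.2, 35.5 and 48.2 CPM in ATRA libraries (log2 fold change -1.36 ± 0.25, adjusted p 0.0125). Neither gene's groups overlapped, and these were the 2 lower members among 9 tested azurophil granule proteins, where 0 were higher. Summed over that list the levels overlapped, at 3730 to 12500 CPM in Combo libraries and 6930 to 10900 CPM in ATRA libraries. The median log2 fold change of the list was -0.49, against -0.09 without Combo day 4 replicate 1 and -0.99 without Combo day 4 replicate 2. TBXAS1, which makes thromboxane, and ALOX5AP, which serves leukotriene synthesis, each fell by 1.60 on the log2 scale (SE 0.18 and 0.20). The 10 largest falls also included IGLL1, KCNJ12, PLXNA4, S100P, WFDC1, RNASE2 and BCL2A1, and their log2 fold changes ran from -2.35 to -1.38. In the NADPH oxidase, CYBB, the catalytic subunit, rose (2.13 ± 0.30) as the higher call among 6 tested genes.

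In the list of MYC and ribosome biogenesis, 5 of 24 tested members were lower and 1 higher (median -0.51). ODC1, the rate-limiting enzyme of polyamine synthesis, had 155, 206, 168 and 177 CPM in Combo libraries, against 273, 323, 320 and 301 CPM in ATRA libraries (log2 fold change -0.79 ± 0.12, adjusted p 0.00584). NOP16, NOP56 and NOLC1 of the nucleolus and POLR1A, a subunit of RNA polymerase I, fell by 0.80, 0.51, 0.58 and 0.62 on the log2 scale. MYC itself had 329, 298, 154 and 410 CPM in Combo libraries, against 414, 501, 375 and 673 CPM in ATRA libraries, overlapping values that were not called (log2 fold change -0.73 ± 0.29, adjusted p 0.181). MYCN was the member that rose (1.12 ± 0.20). The lower members numbered 19 with the GC and length offsets, 9 by DESeq2, 11 without Combo day 4 replicate 1 and 7 without Combo day 4 replicate 2, with 1 higher by DESeq2 and with the offsets. Among 31 cell cycle genes 0 were called by edgeR's quasi-likelihood test (median -0.2, 10 at an unadjusted p under 0.05), against 5 calls by DESeq2, 4 of them lower, and 3 calls without Combo day 4 replicate 1. With offsets for GC content and gene length 17 of the 31 were lower and 1 was higher (median -0.23), so the absence of calls depended on the setting. The summed level of the list was 6860 to 7050 CPM in Combo libraries and 7660 to 7970 CPM in ATRA libraries.

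**Figure D2:**
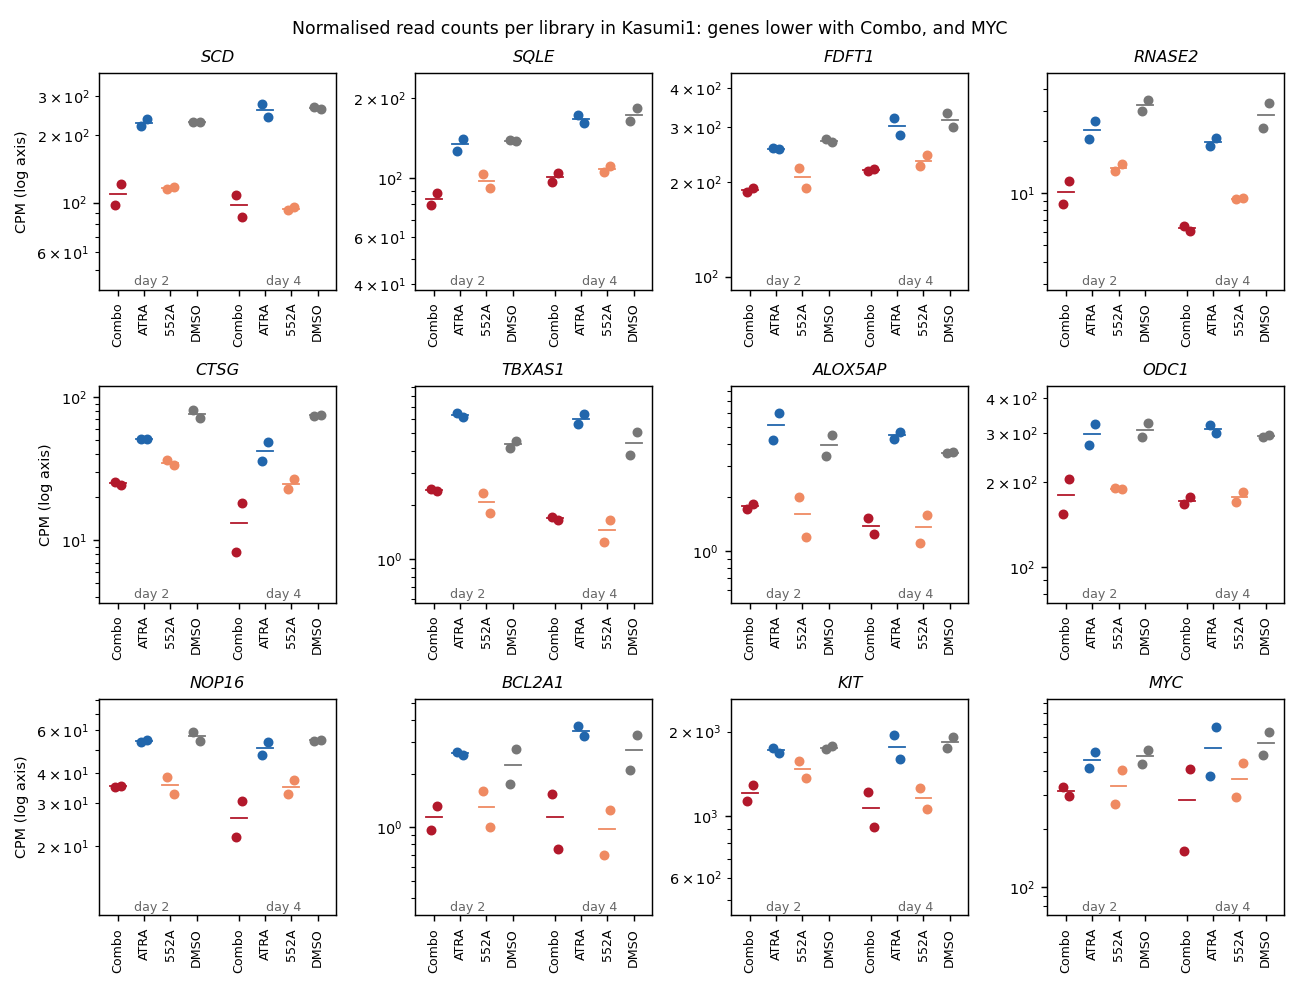
CPM of 12 genes in each of the 16 Kasumi1 libraries (log axis), with Combo, ATRA, 552A and DMSO from left to right for day 2 and then day 4; points are libraries and lines their means. SCD had 86.3 to 121 CPM in Combo libraries and 220 to 276 CPM in ATRA libraries. MYC, the gene in this set that was not called, overlapped between Combo and ATRA libraries.

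Markers of other lineages were examined next. By edgeR's quasi-likelihood test 0 of 8 tested megakaryocyte, platelet and erythroid genes were called (0 at an unadjusted p under 0.05), and 0 of 5 tested genes of mast cells, basophils and eosinophils (3 at an unadjusted p under 0.05), with 0 calls by DESeq2 in either list. Without Combo day 4 replicate 1 they had 2 calls and 1 call, and with the GC and length offsets each had 1 higher and 1 lower. The 3 tested proteins of specific and gelatinase granules, the 13 mitochondrially encoded genes and the 12 replication-dependent histones had 0 calls by either tool, with 1, 0 and 0 at an unadjusted p under 0.05. Among epithelial, stromal and endothelial markers 2 could be tested, and PECAM1, which myeloid cells also express, was higher (log2 fold change 1.79 ± 0.19) while EPCAM was not called. Of 24 lysosomal genes 5 were higher and 0 lower, among them SCPEP1 (1.10 ± 0.13) and NPC2 (0.69 ± 0.11). The share called was 20.8%, against 7.89% of all genes tested, and the median of that list was 0.07. In the list of the integrated stress response and serine synthesis DDIT4 was the call among 17 tested (1.39 ± 0.29). That is 5.88%, against 7.89% of all genes tested, and the GC and length offsets gave 1 higher and 4 lower. Those offsets, under which 4662 of all 16668 genes were called, also moved other counts by more than 1.5 times. Higher members became 8 in the class I list, 8 in the class II list and 11 in the monocyte and macrophage list, against 2, 5 and 7. Lysosomal genes became 8 higher and 2 lower, cell death genes 6 higher and 2 lower, and stem and progenitor genes 8 higher and 3 lower. Lower azurophil granule genes became 4, higher SP100 family genes 4, higher genes of the fusion and core binding factor list 3, higher NADPH oxidase genes 3, and chemokines and cytokines 3 higher and 1 lower.

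**Figure D3:**
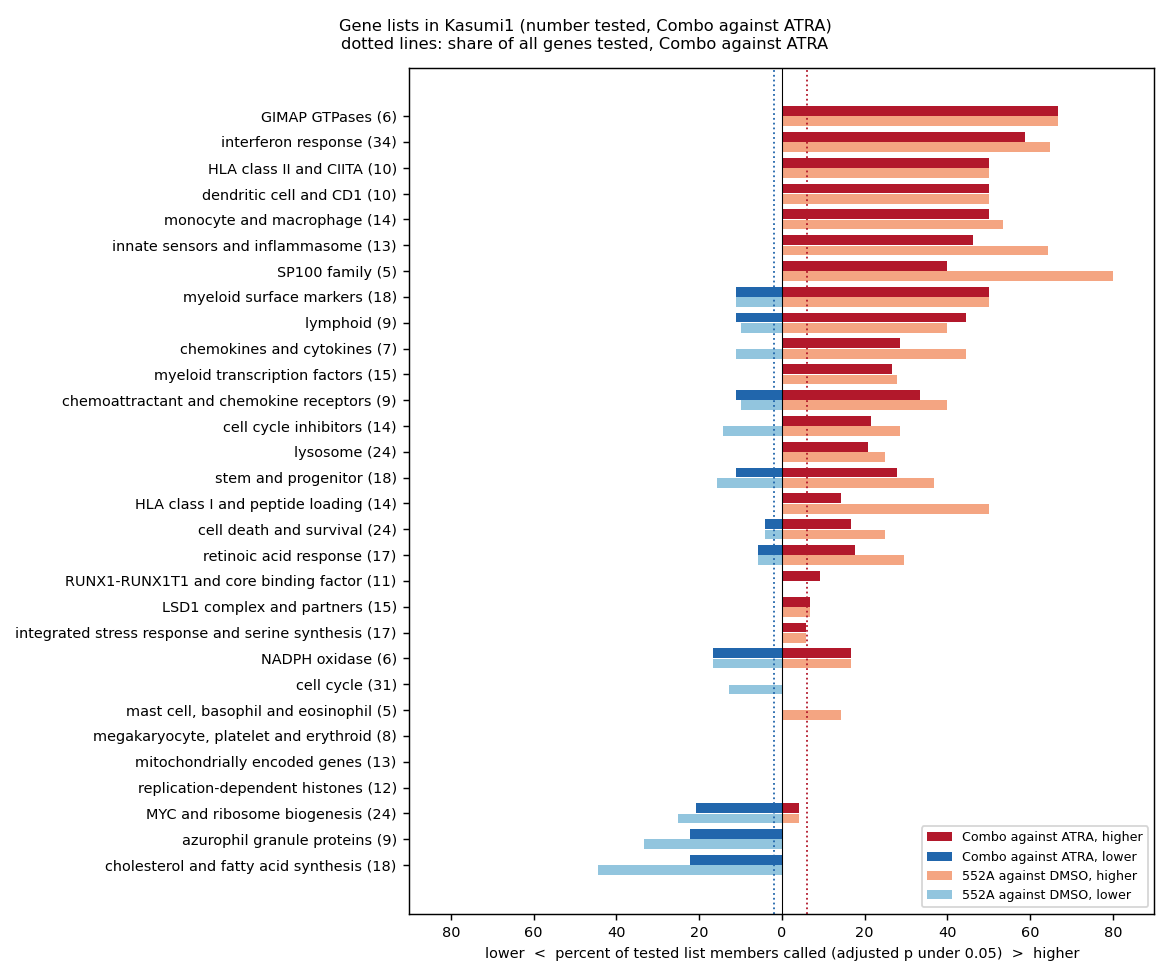
Percent of tested members called in each gene list with 5 or more tested members, higher to the right and lower to the left, for Combo against ATRA (dark) and 552A against DMSO (light), with the number tested for Combo against ATRA beside the name. Dotted lines mark the share of all genes tested in Combo against ATRA, 6% higher and 1.89% lower. Interferon response reached 58.8% higher, and cholesterol and fatty acid synthesis 22.2% lower.

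The effect was also fitted on each day. Of 17240 genes tested by day, 180 were called on day 2 (1.04%), 176 higher (1.02%) and 4 lower (0.0232%). On day 4, 396 were called (2.3%), 355 higher (2.06%) and 41 lower (0.238%). Of the 176 genes higher on day 2, 172 were also called higher on day 4. The same sign on both days was found for all 1315 genes called over both days, which their choice from the same libraries nearly fixes. The difference between the days was called for 0 genes (0%) by edgeR's quasi-likelihood test and 0 by DESeq2, with 166 genes at an unadjusted p under 0.05. Among these were IL7R, whose log2 fold change was 7.63 ± 0.40 on day 4 and 5.05 ± 0.37 on day 2 (unadjusted p 0.00187 for the difference, edgeR), TCF4, with 6.39 ± 0.26 on day 4 and 5.12 ± 0.25 on day 2 (unadjusted p 0.00404, edgeR), and CYBB, with 2.79 ± 0.28 on day 4 and 1.45 ± 0.27 on day 2 (unadjusted p 0.00895, edgeR). All 3 had an adjusted p of 1. TNFRSF10B differed little between the days, with 2.10 ± 0.18 on day 4 and 2.14 ± 0.18 on day 2. The counts of each day rested heavily on single libraries. Day 2 gave 4 to 16 calls without any 1 of its own 4 libraries, 68 without either ATRA day 4 library, 631 without Combo day 4 replicate 1 and 543 without Combo day 4 replicate 2. Day 4 gave 18 and 56 calls without ATRA replicates 2 and 1 of that day, 114 to 136 without any 1 of the day 2 libraries, 757 without Combo day 4 replicate 1 and 4121 without Combo day 4 replicate 2. In the fit without Combo day 4 replicate 2 the 4121 calls were 1593 higher and 2528 lower, against 355 higher and 41 lower with all libraries.

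The inhibitor moved largely the same genes when ATRA was absent. 552A against DMSO, in libraries that the Combo comparison did not use, called 1994 of 18001 genes (11.1%), 1437 higher (7.98%) and 557 lower (3.09%). Of the 1000 genes higher in Combo than in ATRA, 998 had the same sign without ATRA and 901 were called there, which is 90.1% of the first list and 66% of the 1365 called higher without ATRA among the genes tested in both. Of the 315 lower genes, all had the same sign and 261 were called lower, 82.9% of that list and 47.9% of the 545 called lower without ATRA. Across the 16668 genes tested in both, which are not independent replicates, the log2 fold changes with and without ATRA had a Pearson r of 0.893 and a Spearman rho of 0.789. The median change of the higher genes was 1.21 with ATRA and 1.11 without it on the log2 scale, and that of the lower genes was -0.66 with ATRA and -0.53 without it. A difference of the inhibitor's effect with and without ATRA was called for 0 of 18001 genes (0%) by edgeR's quasi-likelihood test and for 0 by DESeq2, and 152 genes had an unadjusted p under 0.05. A p that misses the threshold does not show that the effects were equal. The count of 1994 was 1187 to 1265 without any 1 DMSO library or 552A day 4 replicate 1, and 3267 and 3268 without Combo day 4 replicates 1 and 2, which share the spread estimate of this fit.

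MS4A4A had 20.7, 18.4, 21.1 and 19.2 CPM in 552A libraries, against 0.0946, 0.278, 0.116 and 0 CPM in DMSO libraries, and these 552A levels resembled the 15.7 to 19.8 CPM of Combo libraries. CD34 had 207, 193, 256 and 276 CPM in 552A libraries, against 69.1, 75.5, 70.3 and 76.7 CPM in DMSO libraries. SCD had 115, 117, 92.2 and 95.9 CPM in 552A libraries, against 229, 229, 269 and 264 CPM in DMSO libraries. In each of the 3 genes the 552A and DMSO libraries did not overlap, and the direction was that of Combo against ATRA. GBP4 had 7.94, 5.73, 11.2 and 11.7 CPM in 552A libraries, against 0.899, 0.555, 0.965 and 1.24 CPM in DMSO libraries. Its log2 fold change was 2.4 with ATRA and 3.30 without ATRA (difference -0.89, unadjusted p 0.0073, edgeR), from an ATRA level that was itself above the DMSO level. MN1, a transcriptional co-regulator overexpressed in some AML, had 6.56, 4.71, 5.27 and 12.5 CPM in Combo libraries and 3.17, 2.33, 3.19 and 3.82 CPM in ATRA libraries. Without ATRA it was at 0.416 to 0.579 CPM in 552A libraries and 0 to 0.185 CPM in DMSO libraries, so all libraries with the retinoid lay above all libraries without it. ITGAM was ordered in the same way by both drugs, with 11.1 to 20.7 CPM in Combo libraries, 5.53 to 7.31 CPM in 552A libraries, 1.8 to 2.66 CPM in ATRA libraries and 0.972 to 1.24 CPM in DMSO libraries, and none of these 4 ranges overlapped.

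**Figure D4:**
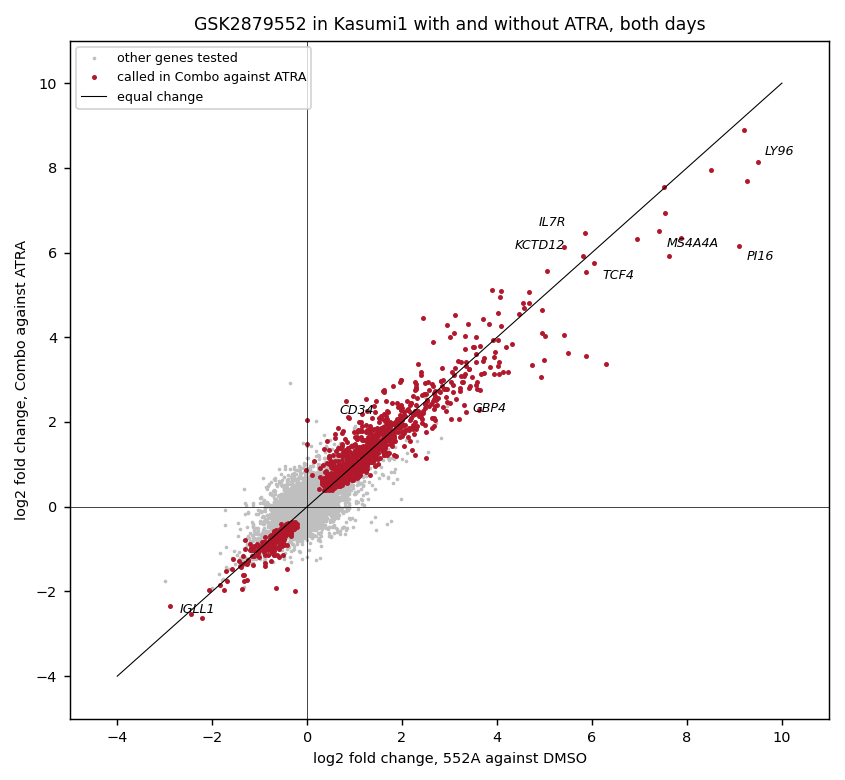
Log2 fold change of 552A against DMSO and of Combo against ATRA in Kasumi1 for the genes tested in both, with genes called in Combo against ATRA in red and the line of equal change in black. Most called genes lie along that line, with a Pearson r of 0.962 over the 1315 called genes, which are not independent replicates.

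Kasumi1 shared part of this response with the other 5 lines. Of its 1000 higher genes, 204 were also called higher in Combo against ATRA in HL60 and 39 were called lower there. Those called higher and lower were 211 and 63 in OCIAML3, 335 and 15 in MOLM13, 381 and 46 in THP1, and 438 and 75 in MV411. Of its 315 lower genes, those called lower and higher were 177 and 8 in MV411, 150 and 10 in THP1, 88 and 5 in MOLM13, 45 and 2 in HL60, and 26 and 13 in OCIAML3. Over all 22889 genes tested, the share called higher was 3.15% in HL60, 3.88% in OCIAML3, 4.62% in MOLM13, 10.1% in THP1 and 14.7% in MV411, and the share called lower was 2.74% in HL60, 2.29% in OCIAML3, 2.74% in MOLM13, 9.86% in THP1 and 11.1% in MV411. Because these shares differ, the overlaps cannot be ranked as likeness. In all 6 lines 37 of the 1000 were called higher, among them CD86, LY96, LYZ, SCPEP1 and RNASE6, which were named after their values were seen. LYZ averaged 47.5 ± 2.29 CPM in Combo libraries of Kasumi1 and 5.41 ± 1.28 CPM in its ATRA libraries, while in THP1 it averaged 5450 ± 921 CPM in Combo libraries and 759 ± 69.1 CPM in ATRA libraries (SD, n = 4 each, over both days). In no other line were 291 of the 1000 called higher. The test of the difference itself, the Kasumi1 effect minus the mean effect of the other 5 lines, called 648 of 22889 genes (2.83%), 467 higher (2.04%) and 181 lower (0.791%) in Kasumi1. Of the 1000 higher genes of Kasumi1, 319 were in that higher set.

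The genes whose rise in Kasumi1 exceeded that in the other lines by most were IL7R, IL21R, TCF4 and KCTD12. IL7R averaged 43.6 ± 36.0 CPM in Combo libraries of Kasumi1 and 0.38 ± 0.15 CPM in its ATRA libraries, whereas in MV411 it averaged 0.718 ± 0.442 CPM in Combo libraries and 4.53 ± 3.94 CPM in ATRA libraries (SD, n = 4 each). Its effect in Kasumi1 minus the mean of the other lines was 7.58 on the log2 scale (adjusted p 1.6e-13, edgeR), and in MV411 and OCIAML3 it was called lower. KCTD12 averaged 255 ± 82.5 CPM in Combo libraries of Kasumi1 and 4.05 ± 0.417 CPM in its ATRA libraries, whereas HL60 held 684 ± 243 CPM in Combo libraries and 615 ± 88 CPM in ATRA libraries (SD, n = 4 each). Its mean under ATRA was lower in Kasumi1 than in any of the other 5 lines. TCF4 showed the same order, with 107 ± 62.6 CPM in Combo libraries and 1.74 ± 0.271 CPM in ATRA libraries of Kasumi1, and 119 ± 11.1 CPM in Combo libraries and 86.5 ± 9.1 CPM in ATRA libraries of OCIAML3 (SD, n = 4 each). CD34 was at 171 ± 28.9 CPM in Combo libraries and 44.8 ± 6.71 CPM in ATRA libraries of Kasumi1 and stayed under 1 CPM on average in both treatments of the other lines. Only its level set Kasumi1 apart, as the difference in its effect was not called (0.58 ± 1.41 on the log2 scale, edgeR). In THP1 CD34 was called higher from those low levels, by 3.32 ± 0.86 (adjusted p 0.00518, edgeR).

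**Figure D5:**
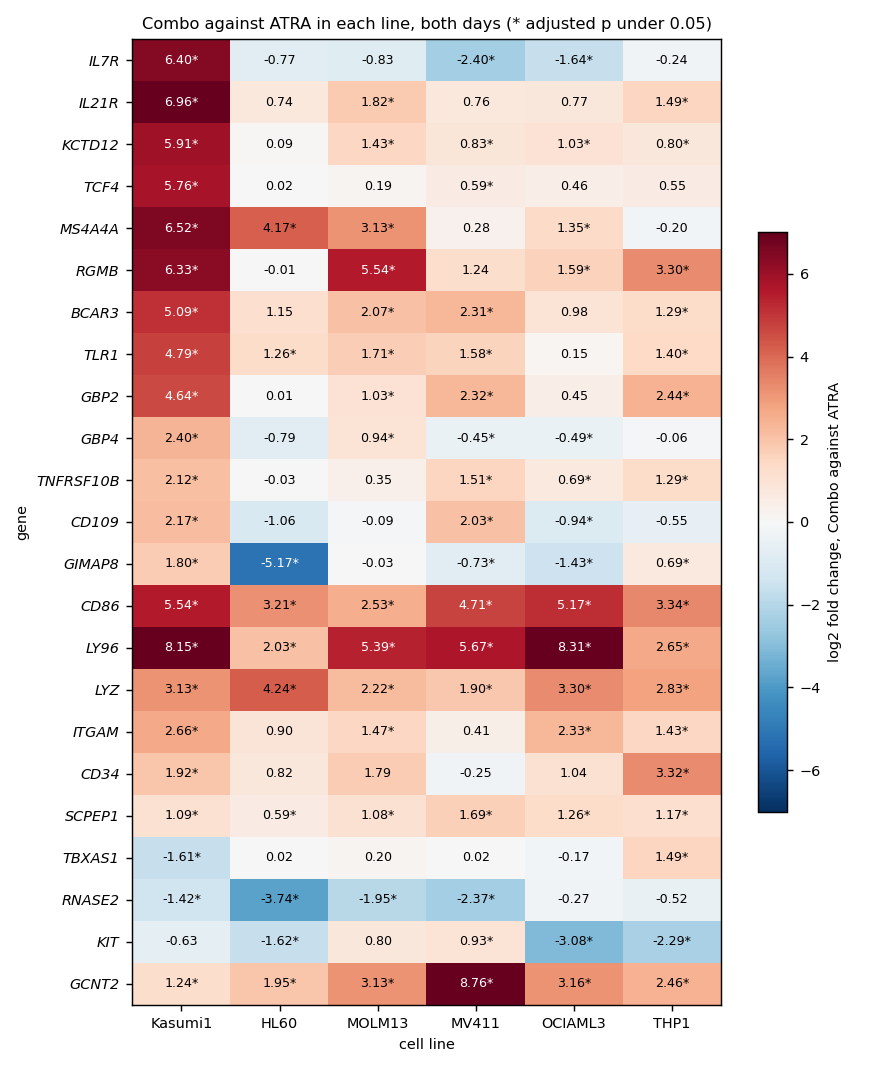
Log2 fold change of Combo against ATRA for a set of named genes in each of the 6 lines, from a fit of the 48 Combo and ATRA libraries of all lines, so Kasumi1 values differ slightly from those of the Kasumi1 fit. Colour gives the size and direction, and a star marks an adjusted p under 0.05. CD86, LY96 and LYZ were starred in all 6 lines, while IL7R was higher in Kasumi1 and lower in MV411 and OCIAML3.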

How the data were processed

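RNA sequencing libraries of Kasumi1 treated with Combo or ATRA were compared. The deposited table held whole-number read counts for 60552 gene rows, which the authors made, per the submitters' processing notes, with Trimmomatic 0.36, STAR 2.4.2a and HTSeq 0.6.0 on GRCh38. RNA came from TRIzol lysates over RNeasy columns and went into TruSeq Stranded Total RNA libraries, per the labels' protocols. Which annotation release and strand setting were used in counting is not given in the sources used here. Values of antisense, overlapping and near-identical genes are therefore uncertain. Identifiers were matched to GENCODE release 29 on GRCh38 (56994 rows).

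The counts were used as deposited, with edgeR 4.0.16 in R 4.3.3 (TMM factors, filterByExpr, quasi-likelihood F test), day as a factor, and a threshold of 0.05 on p-values adjusted over all genes tested by Benjamini and Hochberg. Single days and their difference came from a fit of the 8 libraries with 4 groups, the inhibitor with and without ATRA from the 16 Kasumi1 libraries, and lines from 48 libraries. In the comparison of Combo with ATRA, genes almost absent from ATRA libraries passed the filter only through Combo libraries and could only be found higher. SE is the log2 fold change divided by the square root of F. CPM were scaled by TMM over the 16 Kasumi1 libraries. DESeq2 1.42.0, RLE size factors, other filters, GC and length offsets, a replicate block and fits without each library were the alternatives.

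The comparison, the 32 gene lists (557 distinct genes) and the motifs were chosen with earlier results of these data known. Named genes were the 10 largest rises and the 10 largest falls among calls whose average log2 CPM reached 1 and whose Combo libraries all lay on the same side of the ATRA libraries within each day, up to 4 members per list with the smallest p and those a count rests on, a fixed set of regulators and markers, the 4 largest differences each way between lines, and up to 3 genes with 0 counts in a treatment. Some genes that met this rule are not reported here. Scripts were tested on simulated data.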

Additional observations from a re-analysis of the deposited data

Results flagged for a closer look

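The effect of Combo against ATRA differed between Kasumi1 and the mean of the other 5 lines in 648 of 22889 genes by edgeR's test of the difference itself (adjusted p under 0.05). The 4 largest positive differences were 7.58 for IL7R, 5.85 for IL21R, 5.39 for TCF4 and 5.07 for KCTD12 on the log2 scale. IL21R, the interleukin 21 receptor, averaged 2.27 ± 1.67 CPM in Combo libraries of Kasumi1 and 0.0145 ± 0.029 CPM in its ATRA libraries, from 177 counts and 1 count in all. In the other 5 lines it averaged 1.87 to 21 CPM in Combo libraries and 1.02 to 10.8 CPM in ATRA libraries (n = 4 for each line and treatment).

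The 4 largest negative differences were -2.76 for LAMC3, -2.66 for GCNT2, -2.52 for ALDH1A3 and -2.33 for STS. STS, the steroid sulfatase, averaged 2.87 ± 0.342 CPM in Combo libraries of Kasumi1 and 4.03 ± 0.391 CPM in its ATRA libraries, against 331 ± 72.2 CPM in Combo libraries and 65.5 ± 37.5 CPM in ATRA libraries of MOLM13 (SD, n = 4 each). ALDH1A3, which makes retinoic acid, averaged 1.74 ± 0.347 CPM in Combo libraries of Kasumi1 and 2.48 ± 0.0892 CPM in its ATRA libraries, against 11.6 ± 10.0 CPM in Combo libraries and 0.312 ± 0.0959 CPM in ATRA libraries of MV411 (SD, n = 4 each). GCNT2, which branches blood group I chains, was also higher in Combo libraries of Kasumi1 (1.15 ± 0.383 CPM, against 0.486 ± 0.192 CPM in ATRA libraries, SD, n = 4 each), but by less than the mean of the other lines. In MV411 it had 2.41 CPM in Combo libraries and 0 counts in ATRA libraries. LAMC3, a laminin chain, averaged 15.4 ± 8.61 CPM in Combo libraries and 19.7 ± 6.74 CPM in ATRA libraries of Kasumi1 (SD, n = 4 each). In the other 5 lines it stayed under 1 CPM on average, and HL60 had 0 counts in ATRA libraries, so this difference rests on few counts.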

How the results depend on the processing

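The 1315 genes called over both days became 2179 with DESeq2, 2155 with no low count filter, 4662 with GC and length offsets, 5363 with the replicate block and those offsets, and 2302 in a fit of all 16 Kasumi1 libraries. Day 2 (180) gave 432, 519, 1213 and 1785 under the first 4 of these, day 4 (396) gave 809, 984, 2490 and 3119, and 552A against DMSO (1994) gave 4507 with the offsets and 5447 with the block and offsets. Kasumi1 against the other lines (648) gave 1036 with DESeq2, 1733 with the offsets, 1977 with the block and offsets and 510 to 903 without each other line. With the offsets the higher and lower calls were 771 and 442 on day 2, 1309 and 1181 on day 4, 2195 and 2312 for 552A against DMSO, and 889 and 844 between lines. With no low count filter the difference between days had 5 calls and that with and without ATRA 4. Fits without each Kasumi1 library gave 612 to 2307 (both days), 4 to 631 (day 2), 18 to 4121 (day 4), 0 to 0 (difference between days), 1187 to 3268 (552A against DMSO), 0 to 0 (with minus without ATRA) and 444 to 527 (lines). Same-numbered libraries deviated together (r = 0.424 on day 2 and 0.832 on day 4 across 12266 genes), but the labels do not say that a number marks a shared culture. With the replicate number as a block, 1526 genes were called over both days, 1275 of them among the 1315, and 147 on day 2 and 357 on day 4, the lower members of the cholesterol and fatty acid list numbered 9 in place of 4, and MN1 lost its call. Of 1973 alternative values of the 124 called genes, 1767 kept their side of the threshold, 206 lost it and 0 changed sign. Among genes not called, the sign changed in fits without a library for SPI1 (-0.7 to 0.06), CD38 (-0.35 to 0.05), RARA (-0.43 to 0.46) and RUNX1T1 (-0.1 to 0.18), and for RUNX1T1 also with the offsets (-0.09) and with the block and offsets (-0.09). The causes of these shifts were not tested. Depth limits the genes with few ATRA counts, whose ratios have the wide intervals given above.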

Other observations

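Some genes that rose lay beside each other on the chromosome, a pattern noticed after the values were seen. Of 878 protein-coding genes called higher in Combo against ATRA, 270 (30.8%) had a neighbour among the tested protein-coding genes that was also called higher. Over all 12380 tested protein-coding genes, the share with a higher neighbour was 13.5%. Of 291 lower genes, 26 (8.93%) had a lower neighbour, against 4.6% of all tested. These shares are a description, and overlapping genes were not left out of them. In the MS4A cluster (GRCh38 chr11:60056587-60801305), which encodes tetraspan proteins of blood cells, the 3 of 16 genes that passed the filter, MS4A4A, MS4A7 and MS4A14, were all higher, and the other 13 were too low to test. MS4A4A, at 0.145 to 0.212 CPM in ATRA libraries, passed the filter only through its Combo libraries, so it could only be found higher. The spans of MS4A7 and MS4A14 overlap on the same strand. MS4A7 had 50.5, 57.7, 68 and 53.8 CPM in Combo libraries, against 19.4, 17.9, 21.4 and 18 CPM in ATRA libraries (log2 fold change 1.58 ± 0.14, adjusted p 0.000407, edgeR). MS4A14 rose by 2.04 ± 0.40 on the log2 scale (adjusted p 0.0171). In the GBP cluster (chr1:89006666-89386461) 3 of 4 tested genes were higher. Of these, GBP1, with 1 count in ATRA libraries, and GBP2, at 0.362 to 0.968 CPM there, passed the filter through their Combo libraries. The fourth, GBP3, had 17.6, 16.5, 27.9 and 20.1 CPM in Combo libraries, against 13.6, 11.6, 14.1 and 11.6 CPM in ATRA libraries, and was not called (log2 fold change 0.66 ± 0.18, adjusted p 0.0576).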
